A study of Mus musculus with 15 samples.

Results

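The 6 genes described here were followed across the RNA-seq libraries of mouse fibroblasts that carry a nuclear inhibitor of mTORC1 or its control. They are *Olr1*, *Exo1*, *Gap43*, *Naxd*, *Fancc* and *Vdr*, 6 of the 55266 genes with a summed count. They were selected on their read counts, for a shift between cells with the inhibitor and control cells, both given cycloheximide and PDGF. Values of that comparison are therefore a description, with no test. The cells were NIH3T3, an established line of mouse embryonic fibroblasts. A stable line expressed histone H2A fused to mCherry under doxycycline and served as control. The other expressed H2A fused to TerminaTOR, a protein inhibitor of mTORC1, which places the inhibitor in the nucleus. All cells were starved.

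The 15 libraries formed 5 groups of 3. Control cells were left without PDGF, or were given PDGF alone, rapamycin and PDGF, or cycloheximide and PDGF. TerminaTOR cells were measured with cycloheximide and PDGF, in a single condition. The effect of TerminaTOR and any other difference between the cell lines therefore cannot be told apart. The sources used here give no dose or time, no length of starvation and no level of TerminaTOR. Nothing in the labels says whether replicate libraries stem from separate cultures. The p-values thus measure only the spread among these samples, and that spread may be technical.

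mTORC1 is a protein kinase complex that promotes protein synthesis and growth when nutrients and growth factors are present, and PDGF is a growth factor that activates it in fibroblasts. Rapamycin acts on mTORC1 in all parts of the cell, and cycloheximide stops the synthesis of new protein. The 6 genes have different roles, and *Exo1* and *Fancc* both act in DNA repair. *Olr1* encodes LOX-1, a scavenger receptor that takes up oxidized lipoprotein. *Vdr* encodes the vitamin D receptor, a nuclear receptor that binds DNA together with a retinoid X receptor. *Exo1* encodes an exonuclease of mismatch repair and of DNA end resection. *Fancc* encodes a subunit of the Fanconi anaemia core complex, which acts in the repair of DNA crosslinks. *Gap43* encodes a growth-associated membrane protein, a substrate of protein kinase C known from growing axons. *Naxd* encodes a dehydratase that repairs hydrated, inactive forms of NADH and NADPH.

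The start regions of 4 of the 6 genes are shown because the comparisons below are about RNA levels, to which these regions are the nearest regulatory sequence. Each line gives the 250 bases before the RefSeq start site (GRCm38.p6), 5′ to 3′ on the gene's own strand, with matches to any of 7 short motifs in capitals. The *Olr1* stretch is chr6:129507166-129507415 on the minus strand, that of *Vdr* chr15:97908297-97908546 (minus), that of *Naxd* chr8:11497256-11497505 (plus, the first of its 2 listed starts) and that of *Fancc* chr13:63431746-63431995 (minus). *Exo1* and *Gap43* had no entry in the RefSeq table and are named only. The *Vdr* and *Fancc* stretches lie inside these genes as annotated, whose spans reach 97910630 and 63497278. Annotated starts further upstream are therefore not shown, and which transcripts begin at the printed starts is not given here.
Olr1: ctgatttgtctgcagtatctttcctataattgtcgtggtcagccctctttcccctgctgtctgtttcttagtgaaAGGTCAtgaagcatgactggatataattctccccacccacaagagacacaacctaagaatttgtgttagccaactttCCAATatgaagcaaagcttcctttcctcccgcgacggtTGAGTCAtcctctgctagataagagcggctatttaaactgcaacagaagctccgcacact
Vdr: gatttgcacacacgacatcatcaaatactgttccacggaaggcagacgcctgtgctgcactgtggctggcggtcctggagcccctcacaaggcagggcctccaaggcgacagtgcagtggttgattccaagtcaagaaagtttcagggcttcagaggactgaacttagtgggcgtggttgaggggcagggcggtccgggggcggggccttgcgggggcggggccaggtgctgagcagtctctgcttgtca
Naxd: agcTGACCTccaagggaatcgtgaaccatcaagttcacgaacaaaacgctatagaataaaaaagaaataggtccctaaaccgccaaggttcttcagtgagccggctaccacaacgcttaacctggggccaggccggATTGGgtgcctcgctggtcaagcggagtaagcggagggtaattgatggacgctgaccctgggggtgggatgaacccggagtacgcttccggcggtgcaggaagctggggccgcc
Fancc: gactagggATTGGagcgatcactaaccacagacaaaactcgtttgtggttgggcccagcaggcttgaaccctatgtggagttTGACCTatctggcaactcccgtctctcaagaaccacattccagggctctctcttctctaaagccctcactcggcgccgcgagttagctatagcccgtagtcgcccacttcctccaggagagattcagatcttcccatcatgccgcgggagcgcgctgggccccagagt

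The motifs were searched on both strands over windows of 300 bases, which reach past the start site into the transcript. The first was the AP-1 motif TGANTCA, bound by Fos and Jun proteins. AGGTCA is the core of sites for the vitamin D receptor and other nuclear receptors. CCAAT is a common promoter box. The E-box was searched as CACGTG, the core of the cyclic AMP response element as TGACG, the E2F motif as TTTNNCGC and the TATA box as TATAAA. No printed match overlaps another. With positions counted from the start site as 0, *Olr1* held 1 AP-1 match at -60 to -54, CCAAT at -98 to -94 and AGGTCA at -175 to -170. AP-1 matches lay in 7.81% of all 32851 windows, AGGTCA in 16.3% and CCAAT in 37.4%. *Naxd* and *Fancc* each held AGGTCA and CCAAT on the opposite strand, so that their complements stand in capitals in the lines above. *Naxd* had 1 more CCAAT at 17 to 21, past the printed stretch, and its second listed start had 2 CCAAT matches and no AGGTCA. The *Vdr* window held none of the 7. The shares of windows with the E-box, the cyclic AMP element core, E2F and the TATA box were 7.15%, 20.8%, 5.17% and 13.6%. A match describes the letters only.

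Total counts ran from 3466202 to 6777780 per library, and both extremes were TerminaTOR libraries, replicate 3 being the shallowest of all. The files count reads per transcript, and a gene's value is the sum over its transcripts. Levels are given as CPM, reads scaled to the library total after TMM normalization, with the standard deviation (SD) over 3 libraries. They are not scaled to length, so they compare groups and not genes. Of 14 fibroblast markers, all had reads, and they summed to between 6155 and 10881 CPM per library. Their sum was 10261 to 10881 CPM in TerminaTOR cells and 9048 to 9388 CPM in the matched control, with 4 of 12 tested higher and 2 lower by edgeR, where 4.92% of all genes were called. It was 6155 to 6442 CPM with rapamycin against 8791 to 9198 CPM with PDGF, with 3 of 12 higher and 7 lower, where 32.3% of all genes were called. Macrophage markers summed to 62.1 to 72.9 CPM in TerminaTOR cells and 64.8 to 78.6 CPM in the matched control, with *Adgre1*, *Itgam* and *Tyrobp* at 0. They summed to 22.0 to 24.9 CPM with rapamycin and 17.6 to 20.7 CPM with PDGF. Neuron and glia markers, with *Rbfox3* and *Syt1* at 0, summed to 50.4 to 59.1 CPM with rapamycin and 15.2 to 26.7 CPM with PDGF, with 2 of 3 tested higher and 0 lower. They summed to 19.5 to 22.8 CPM in TerminaTOR cells and 13.9 to 20.4 CPM in the matched control. Endothelial markers, with *Cldn5*, *Egfl7*, *Emcn* and *Tie1* at 0, summed to between 2.77 and 7.44 CPM in any library. Epithelial markers, with *Epcam*, *Esrp1* and *Krt18* at 0, had 1 member with enough reads to be tested. The part of these markers in the results was not tested. In bulk RNA, fewer cells of a type and less RNA per cell cannot be told apart.

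**Figure D1:**
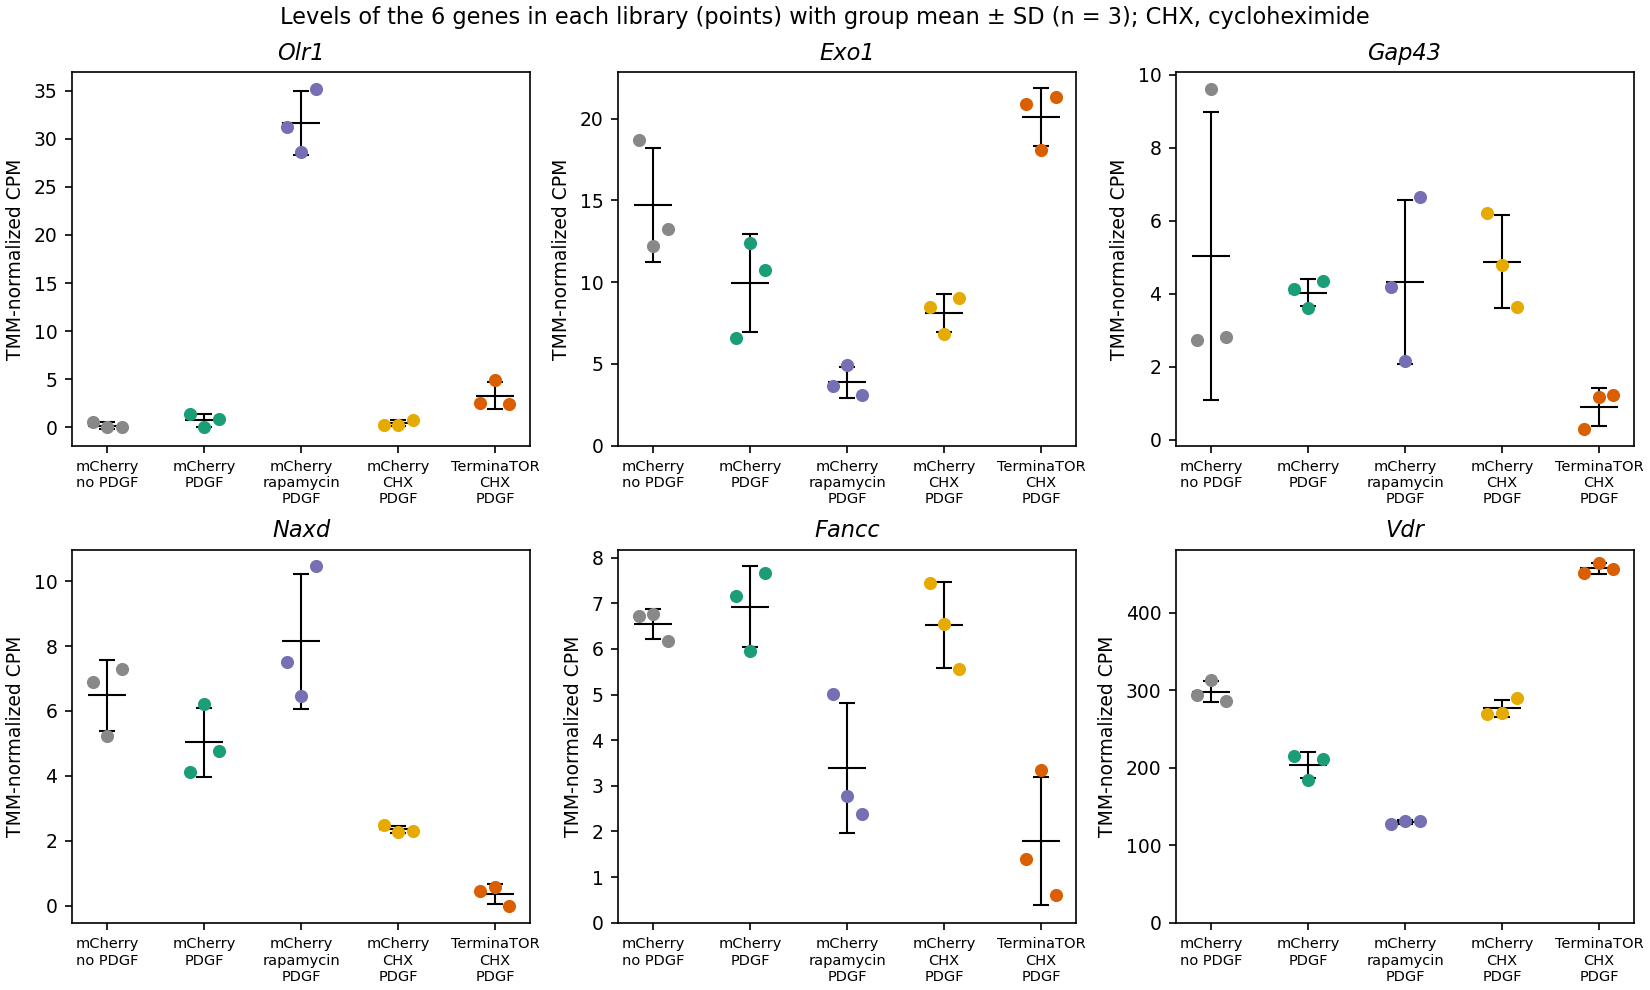
Levels of the 6 genes (TMM-normalized CPM, each panel with its own axis) in the 5 groups; points are libraries and bars the mean ± SD (n = 3), with CHX for cycloheximide. *Olr1* reached 28.6 to 35.2 CPM with rapamycin, *Vdr* and *Exo1* had their highest mean in TerminaTOR cells, and *Gap43*, *Naxd* and *Fancc* their lowest mean there.

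The choice of the genes shows in TerminaTOR cells, where 3 were high and 3 low. For all 6, the TerminaTOR libraries and the matched control libraries did not overlap. Over all 10603 genes tested, 23.7% did not overlap and 4.92% were called changed by edgeR at an adjusted p under 0.05, 2.35% higher and 2.57% lower. Nothing is read from the members' count, since this comparison picked them.

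*Olr1* (ENSMUSG00000030162.14, GRCm38 chromosome 6, 129485244 to 129507165, minus strand) had 16, 25 and 8 reads in the TerminaTOR libraries and 1, 1 and 4 reads in the matched controls. Its level was 2.50, 4.91 and 2.44 CPM against 0.207, 0.252 and 0.768 CPM. That is a log2 change of 2.88 ± 0.59 (approximate standard error, SE), or 7.36-fold. The low control level rests on 6 reads, 4 of them in replicate 3, and without that library the log2 change was 3.71.

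Rapamycin gave the largest change of any member. *Olr1* had 112, 93 and 148 reads with rapamycin and PDGF, against 5, 0 and 4 reads with PDGF alone. The levels were 31.2, 28.6 and 35.2 CPM and 1.38, 0 and 0.829 CPM, so every rapamycin library lay above every library of the other 4 groups. *Olr1* rose by a log2 change of 5.39 ± 0.43 SE (edgeR adjusted p = 3.48e-17), or 41.9-fold. The size depends on the 9 reads of the PDGF group: the log2 change was 6.03 without its replicate 1 and 4.85 without its replicate 2.

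Against cells without PDGF, *Olr1* had 353 reads to 3, a ratio of levels of 164 with an exact 95% interval of 55.8 to 801 that covers counting error only (edgeR adjusted p = 1.87e-20). All 3 of those reads were in replicate 1. PDGF alone gave 9 reads against 3, a ratio of 3.76 (0.937 to 21.6), and did not pass the test (edgeR adjusted p = 0.126). The test was passed without replicate 1 of the unstimulated group (adjusted p = 0.0127), which leaves that group with no read, or without replicate 2 of the PDGF group (0.0374), which had none. In the order of levels, the 3 control groups without rapamycin overlapped each other, TerminaTOR cells lay above them with no overlap, and rapamycin lay far above TerminaTOR cells at 31.7 ± 3.30 against 3.28 ± 1.41 CPM.

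*Vdr* (ENSMUSG00000022479.15, chromosome 15, 97854425 to 97910630, minus strand) was the best measured member, with 19185 reads in all. It stood at 451, 465 and 456 CPM in TerminaTOR cells and at 269, 271 and 290 CPM in the matched controls. The log2 difference was 0.72 ± 0.07 SE, 1.65-fold. Every TerminaTOR library lay above every other library of the series.

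In control cells *Vdr* was highest without PDGF or with cycloheximide and lowest with rapamycin. It measured 295, 313 and 287 CPM without PDGF, 216, 184 and 211 CPM with PDGF, and 128, 132 and 131 CPM with rapamycin and PDGF. No 2 of these groups overlapped. It fell by 0.55 ± 0.07 on the log2 scale with PDGF (edgeR adjusted p = 2.75e-10) and by a further 0.65 ± 0.07 with rapamycin over PDGF (1.74e-11), which is 1.56-fold lower. Against unstimulated cells the rapamycin level was 2.29-fold lower (edgeR adjusted p = 2.39e-24). Control cells with cycloheximide and PDGF, at 277 ± 11.5 CPM, overlapped the unstimulated level of 298 ± 13.8 CPM and lay above PDGF alone by 0.44 (0.30 with libraries scaled by their totals; no test, since these libraries also served to choose the genes).

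*Exo1* (ENSMUSG00000039748.11, chromosome 1, 175880581 to 175913489, plus strand) measured 20.9, 18.1 and 21.4 CPM in TerminaTOR cells and 8.48, 6.81 and 9.03 CPM in the matched controls. The log2 difference was 1.30 ± 0.24 SE, 2.46-fold. The TerminaTOR level overlapped that of unstimulated control cells, which was 18.7, 12.2 and 13.3 CPM.

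With rapamycin and PDGF *Exo1* was at its lowest, at 3.62, 4.92 and 3.09 CPM, below all libraries of every other group. These levels rest on 13, 16 and 13 reads. PDGF alone gave 6.61, 12.4 and 10.8 CPM. *Exo1* fell by 1.38 ± 0.30 on the log2 scale with rapamycin over PDGF (edgeR adjusted p = 0.000165) and by 1.95 ± 0.29 against unstimulated cells (1.73e-08). The lower level with PDGF than without, a log2 change of -0.56 ± 0.24, missed the threshold (edgeR adjusted p = 0.0577). It passed without replicate 2 or 3 of the unstimulated group, without replicate 2 of the PDGF group (adjusted p = 0.0325, 0.0463 and 0.0304) and when libraries were scaled by their totals (0.00444).

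*Fancc* (ENSMUSG00000021461.17, chromosome 13, 63285043 to 63497278, minus strand) was low in TerminaTOR cells, at 1.41, 3.34 and 0.610 CPM against 7.45, 6.56 and 5.57 CPM in the matched controls. The log2 change was -1.78 ± 0.40 SE, 3.44-fold lower, from 28 against 91 reads, and ranged from -2.52 to -1.49 on leaving out 1 library. The other control levels were 6.72, 6.76 and 6.17 CPM without PDGF and 7.16, 5.94 and 7.66 CPM with it, which overlap. With rapamycin it measured 5.01, 2.77 and 2.38 CPM, below both and overlapping TerminaTOR cells.

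*Fancc* fell by 1.04 ± 0.38 on the log2 scale with rapamycin over PDGF (edgeR adjusted p = 0.0298), 2.06-fold, and by 0.96 ± 0.38 against unstimulated cells (0.0284). Both calls were fragile. The first was lost without replicate 1 or 3 of the PDGF group or replicate 2 or 3 of the rapamycin group (adjusted p up to 0.150), and the second without replicate 1 of the unstimulated group or replicate 2 or 3 of the rapamycin group (up to 0.140). With PDGF alone the log2 change was 0.08 ± 0.34 (0.872).

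*Gap43* (ENSMUSG00000047261.9, chromosome 16, 42248442 to 42340651, minus strand) had 2, 6 and 4 reads in TerminaTOR cells and 30, 19 and 19 in the matched controls. The levels were 0.312, 1.18 and 1.22 CPM against 6.20, 4.79 and 3.65 CPM, a log2 change of -2.51 ± 0.54 SE and 5.70-fold lower. All TerminaTOR libraries lay below every other library.

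The 4 control groups overlapped in *Gap43*. It measured 2.73, 9.60 and 2.80 CPM without PDGF, 4.13, 3.62 and 4.35 CPM with PDGF and 4.18, 2.15 and 6.65 CPM with rapamycin, and every neighbouring pair in the order of control means overlapped. No change passed the test: the log2 values were -0.29 ± 0.43 with PDGF (edgeR adjusted p = 0.644), 0.13 ± 0.45 with rapamycin over PDGF (0.867) and -0.16 with rapamycin over no PDGF (0.782). Replicate 2 of the unstimulated group stood apart with 44 of the group's 74 reads, and without it the PDGF change was 0.54 and the rapamycin change against no PDGF 0.64.

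*Naxd* (ENSMUSG00000031505.11, chromosome 8, 11497506 to 11514960, plus strand) had 3, 3 and 0 reads in TerminaTOR cells and 12, 9 and 12 in the matched controls, or 0.468, 0.590 and 0 CPM against 2.48, 2.27 and 2.30 CPM. The log2 change was -2.47 ± 0.60 SE, 5.54-fold lower. The matched controls were themselves below all control libraries without cycloheximide. *Naxd* measured 6.90, 5.24 and 7.29 CPM without PDGF, 4.13, 6.20 and 4.76 CPM with PDGF and 7.52, 6.46 and 10.5 CPM with rapamycin. The step from PDGF alone to PDGF with cycloheximide was -1.09 on the log2 scale (no test).

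Neither PDGF nor rapamycin changed *Naxd* beyond the threshold. The log2 change was -0.37 ± 0.36 with PDGF (edgeR adjusted p = 0.453), 0.70 ± 0.36 with rapamycin over PDGF (0.132) and 0.34 with rapamycin over no PDGF (0.422). The rapamycin and PDGF libraries did not overlap.

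**Figure D2:**
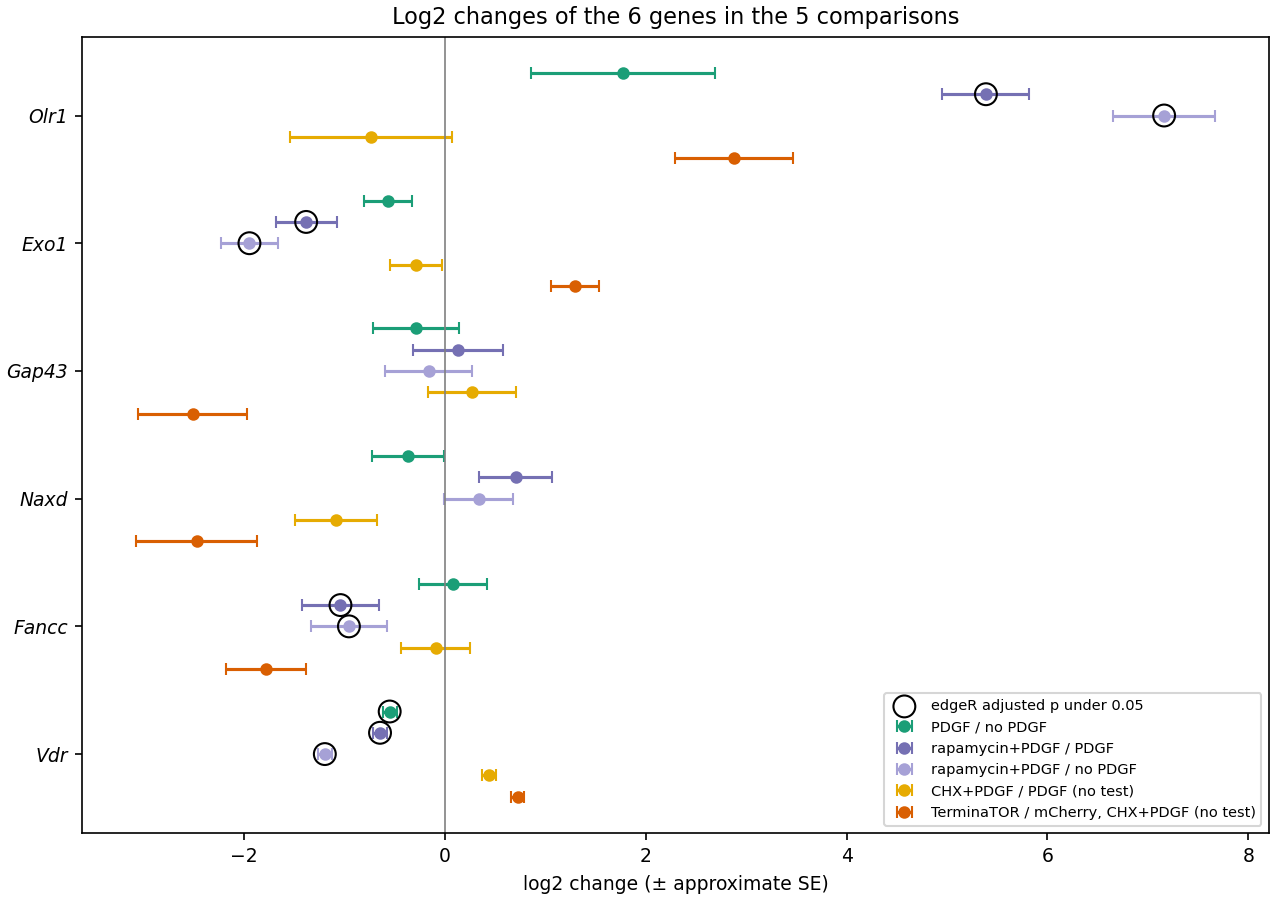
Log2 change (x axis, ± approximate SE) of each gene in the 5 comparisons, with rings for an edgeR adjusted p under 0.05 in the 3 comparisons that were tested. *Exo1* and *Vdr* lie to the left under rapamycin and to the right in TerminaTOR cells, *Olr1* lies to the right in both and *Fancc* to the left in both.

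By count, PDGF alone raised none of the 6 and lowered 1, *Vdr*. Over all genes tested, 37% were called, 20.1% higher and 16.9% lower. With libraries scaled by their totals, which moves the median of all genes from -0.01 to -0.26, the split was 1379 higher and 3111 lower in place of 2128 and 1794. The groups did not overlap for 1 member and for 46.2% of all genes. Rapamycin with PDGF against PDGF raised 1, *Olr1*, and lowered 3, *Exo1*, *Fancc* and *Vdr*, where 32.3% of all genes were called (16.3% higher and 16.1% lower). The groups did not overlap for 5 of the 6, and for 40.9% of all genes. Against no PDGF the same comparison again raised *Olr1* and lowered *Exo1*, *Fancc* and *Vdr*, beside 53.3% of all genes (27.8% higher, 25.5% lower). Scaling by totals gave 1918 higher and 4153 lower genes there in place of 2948 and 2708, with a median of -0.36. There was no overlap for 4 members and for 56.3% of all genes. With cycloheximide and PDGF against PDGF alone, the groups of 2 members, *Naxd* and *Vdr*, did not overlap, beside 50.6% of all genes. EdgeR called 40.6% of all genes there, 21% higher and 19.6% lower, and nothing is read from the members' values. Side by side, the log2 changes under rapamycin over PDGF and in TerminaTOR cells were 5.39 and 2.88 for *Olr1*, -1.38 and 1.30 for *Exo1*, -0.65 and 0.72 for *Vdr*, -1.04 and -1.78 for *Fancc*, 0.13 and -2.51 for *Gap43*, and 0.70 and -2.47 for *Naxd*. The 2 comparisons differ in cycloheximide and in cell line, and their difference was not tested for the members, which the second comparison chose.

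The transcripts behind each sum differ in kind. The counted reads of *Olr1*, *Exo1*, *Gap43* and *Vdr* lay nearly all on a single protein-coding transcript each. All other *Olr1* transcripts, and some of *Exo1* and *Vdr*, have no bases of their own. A count per transcript leaves them no place for a read, so the shares do not show whether they are expressed. Olr1-201 held 100% of the reads, Exo1-201 98.6%, Gap43-201 99.6% and Vdr-201 99.7%. The bases that only these transcripts hold lay mostly in the last exon for Olr1-201 (91.0% of such bases), Exo1-201 (85.9%) and Vdr-201 (84.0%), and in the second of 3 exons for Gap43-201 (74.4%). Tested as transcripts, Olr1-201 rose by 5.36 with rapamycin over PDGF, Exo1-201 fell by 1.66 ± 0.32 (edgeR adjusted p = 1.93e-05) and Vdr-201 by 0.67, where 27.2% of 13116 transcripts were called. With PDGF alone Vdr-201 fell by 0.57, where 33% were called, and with rapamycin over no PDGF by 1.25, where 49.7% were.

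For *Naxd* the reads say nothing direct about its coding mRNA. All 3 protein-coding transcripts had 0 reads in every library. Of these, Naxd-201 and Naxd-205, have 0 bases of their own, and Naxd-202 has 61, so a count per transcript leaves them nearly no place for a read. The sum came from 4 transcripts annotated as retained introns: Naxd-209 with 129 reads, Naxd-203 with 69, Naxd-208 with 57 and Naxd-204 with 31. A transcript annotated for nonsense-mediated decay, Naxd-206, added 8.

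The countable bases of those 4 transcripts are stretches that are intronic in Naxd-201, at 11512386 to 11512894, 11506816 to 11507070, 11497741 to 11498250 and 11509962 to 11510226. For 3 of them TerminaTOR cells had fewer reads than the matched controls, 2 against 11 for Naxd-209, 3 against 9 for Naxd-203 and 0 against 9 for Naxd-208. Naxd-204 had 1 against 0. Naxd-209 alone passed the filter of the transcript test, with a log2 change of 1.25 ± 0.57 with rapamycin over PDGF (edgeR adjusted p = 0.0933). The values of *Naxd* are therefore counts on stretches that its main coding transcript does not contain. Its neighbour *Cars2*, which encodes a mitochondrial tRNA synthetase, overlaps the 3′ part of the gene on the opposite strand and none of these 4 stretches.

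Most counted reads of *Fancc* lay on 2 coding transcripts with different last exons. Some of its other coding transcripts have no bases of their own, so a count per transcript leaves them no place for a read. Fancc-218 ends in an exon at 63285043 to 63285520 and had 172 reads, 50.1% of the gene's. Fancc-201 ends at 63304712 to 63305868 and had 130. For both, all bases of their own lie in that last exon. Fancc-218 measured 4.41, 4.14 and 4.35 CPM with PDGF and 4.76, 5.29 and 4.03 CPM with cycloheximide and PDGF, but 1.95, 0.923 and 0.475 CPM with rapamycin and 0, 0.590 and 0 CPM in TerminaTOR cells. Fancc-201 measured 1.65, 1.55 and 2.07, then 2.48, 1.01 and 1.54, then 3.06, 1.54 and 1.90 and last 1.09, 1.38 and 0 CPM in the same groups.

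Most of the missing *Fancc* reads under rapamycin and in TerminaTOR cells were reads of Fancc-218. It had 3 reads in TerminaTOR cells and 65 in the matched controls, a ratio of levels of 0.0438. Fancc-201 had 14 and 24, a ratio of 0.553. Both ratios are a description with no test, since the comparison that gave them chose *Fancc*. With rapamycin over PDGF, Fancc-218 fell by 1.98 ± 0.58 on the log2 scale (edgeR adjusted p = 0.00563) and Fancc-201 had a log2 change of 0.26 ± 0.62 (0.811). A test of the difference between the transcripts of a gene, edgeR's diffSpliceDGE, added after the transcript counts were seen, gave Fancc-218 a log2 change of -0.73 relative to its gene (adjusted p = 0.685) and called 0.759% of 5267 transcripts, so an unequal change was not shown. Both last exons lie within *2010111I01Rik* on the opposite strand, and whether the libraries mark strand is not given. That gene stood at 1.38 ± 0.883 CPM in TerminaTOR cells and 1.42 ± 1.10 CPM in the matched controls.

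**Figure D3:**
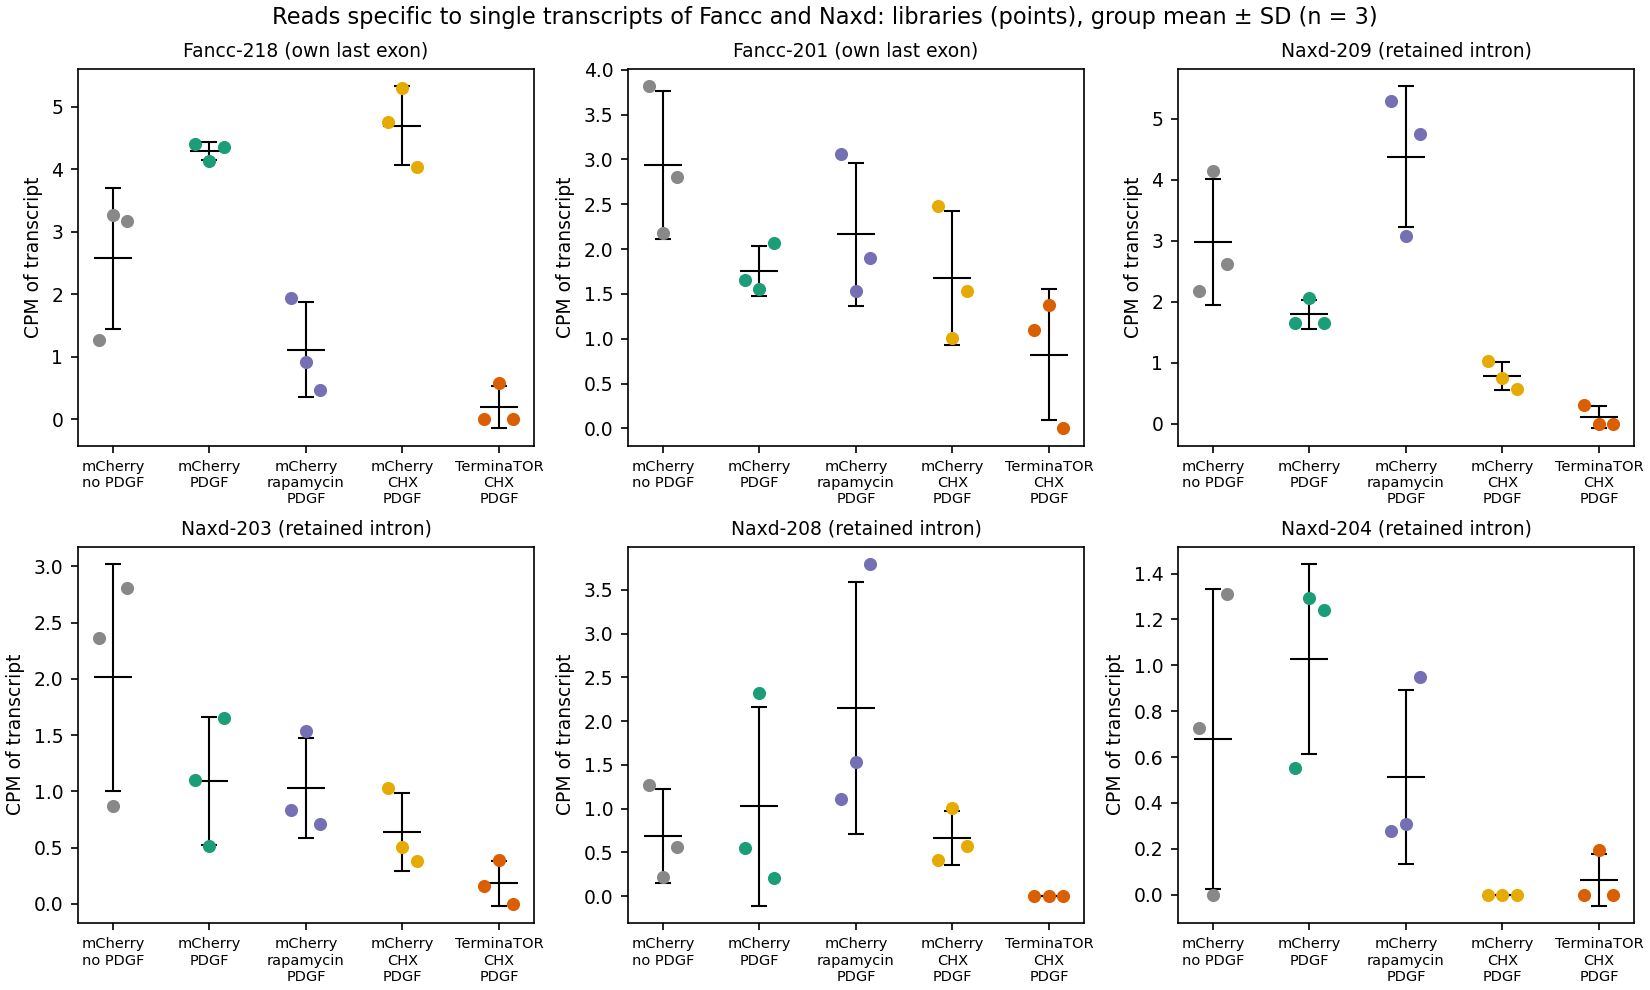
Level of single transcripts of *Fancc* and *Naxd* (CPM, each panel with its own axis) in the 5 groups, with libraries as points and bars for mean ± SD (n = 3). In control cells Fancc-218 is at 4.30 ± 0.143 CPM with PDGF alone and 4.70 ± 0.633 CPM with cycloheximide and PDGF. In TerminaTOR cells with cycloheximide and PDGF it is at 0.197 ± 0.340 CPM. Naxd-208 has 0 reads in all 3 TerminaTOR libraries.

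The genes around the members were not used to choose them and could be tested in the TerminaTOR comparison. Within 500 kb, 23 neighbours were tested and 3 were called by edgeR, 13.0% against 4.92% of all genes. Near *Naxd*, *Col4a2*, a chain of basement membrane collagen 48.2 kb away, rose by 0.24 ± 0.06 on the log2 scale (edgeR adjusted p = 0.00309) and *Irs2*, an adaptor of insulin signalling 489 kb away, by 0.26 ± 0.06 (0.00206). Near *Vdr*, *Asb8* at 224 kb fell by 0.55 ± 0.16 (0.0325), a call lost on leaving out any 1 of the 6 libraries compared. EdgeR called no tested neighbour of *Olr1* (4 tested), *Exo1* (2) or *Fancc* (3), and *Gap43* had none to test. At an unadjusted p under 0.05, 0 of these neighbours were higher and 2 lower. The share of all genes at that threshold is not given here, so nothing is read from these counts.

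The nearest tested genes gave no call either. *Gabarapl1*, an autophagy gene 26.0 kb from *Olr1*, had a log2 difference of 0.05 (edgeR adjusted p = 0.790), and *2010111I01Rik*, which overlaps *Fancc*, 0.01 (0.997). On the other side of *Olr1*, *2310001H17Rik* at 247 kb had 0.60 ± 0.33 (0.362). On the other side of *Fancc*, *Ercc6l2* at 318 kb had -1.41 ± 0.64 (0.233), at 0.882 ± 0.330 CPM in TerminaTOR cells and 2.47 ± 1.30 CPM in the matched controls. *Cars2*, which overlaps *Naxd*, stood at 0.495 ± 0.554 CPM in TerminaTOR cells and 1.48 ± 0.643 CPM in the matched controls, a log2 difference of -1.30 ± 0.66 (0.310). *Hdac7*, a histone deacetylase gene 9.92 kb from *Vdr*, and *Senp1*, a SUMO protease gene 128 kb to its other side, had differences of -0.36 and 0.01 (0.813 and 0.983). *Opn3*, an opsin gene 188 kb from *Exo1*, had -0.67 (0.117).

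**Figure D4:**
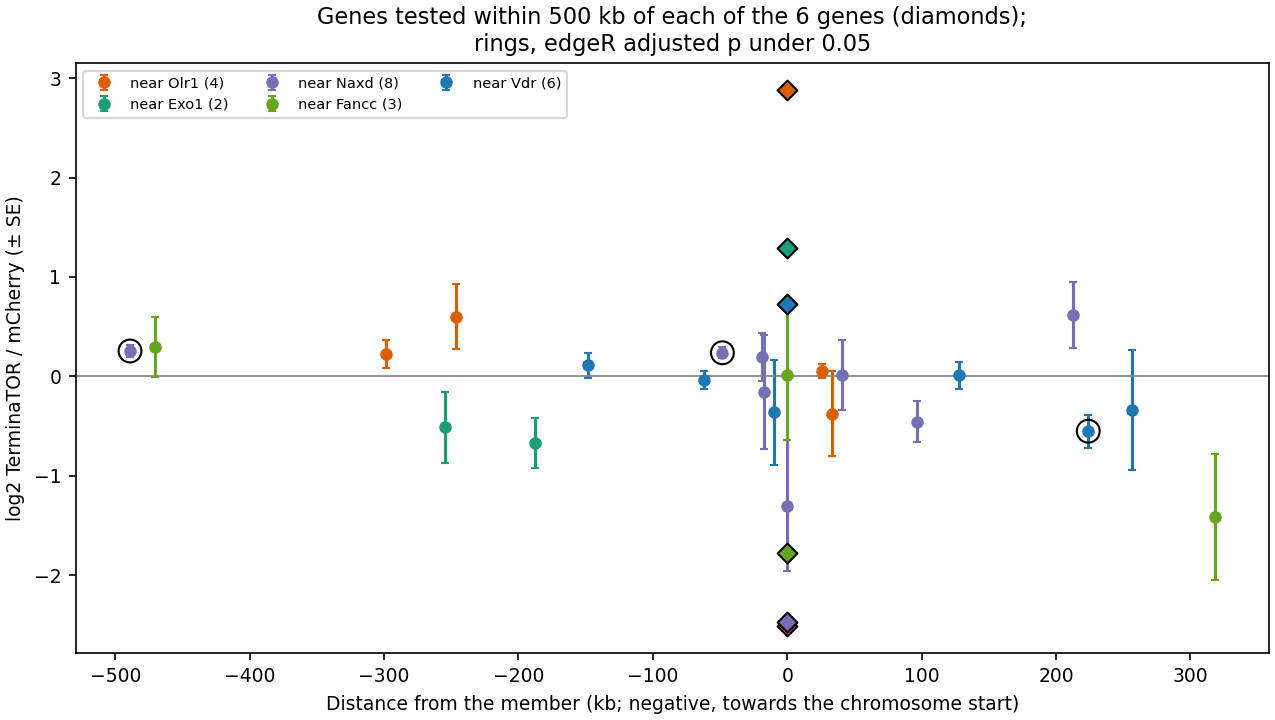
Log2 difference between TerminaTOR and control cells with cycloheximide and PDGF (y axis, ± approximate SE) for the 23 tested genes within 500 kb of a member, by distance in kb; diamonds are the members and rings mark an edgeR adjusted p under 0.05. The 3 called neighbours lie at -0.55, 0.24 and 0.26; the members were chosen for their shift in this comparison and are shown for their place only.

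The pathways of the 6 genes were given by lists that leave out the members. Of the 71 listed genes tested, 3 were called higher and 5 lower in the TerminaTOR comparison, 11.3% against 4.92% of all genes (2.35% higher and 2.57% lower). Of those 3 and 5 calls, 1 and 3 were in the *Gap43* list, which also holds the transcription factor genes *Klf6* and *Klf7*. With rapamycin over PDGF, 11 were higher and 18 lower, 40.8% against 32.3% of all genes. The lists were chosen with earlier results of these data known, so nothing is read from these shares. In the TerminaTOR comparison the median change of each list lay between -0.09 and 0.13 (0.00057 over all genes). Without filter 1 listed gene was higher in place of 3. Leaving out 1 library kept the calls of *Klf6* and *Klf7* in all 6 fits and lost those of *Scarb2*, *Prkcd*, *Fancf*, *Rfwd3* and *Pdia3* in 2 to 5 of them. Beside *Olr1*, 8 of 19 scavenger receptor genes were tested. With rapamycin over PDGF, 1 rose and 3 fell. *Scara5*, a ferritin receptor, rose by 1.82 ± 0.49 (edgeR adjusted p = 0.00201), while *Scara3* fell by 1.17 and *Scarb2*, a lysosomal membrane protein, by 0.71. In TerminaTOR cells 0 rose and 1 fell, *Scarb2*, by 0.28 (adjusted p = 0.0276), a call lost in 5 of 6 fits without 1 library. *Msr1*, the macrophage scavenger receptor, had 1 read in all libraries.

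Of 13 tested genes of the vitamin D receptor list, 3 rose and 2 fell with rapamycin over PDGF, and 1 and 0 in TerminaTOR cells. *Cdkn1a*, a cell cycle inhibitor that the receptor is known to activate, rose by 1.97 ± 0.43 (edgeR adjusted p = 0.000134) and the coactivator *Ncoa1* fell by 0.49 (0.0171), a call lost in 4 of 6 fits without 1 library. *Rxra*, the receptor's partner, fell with PDGF as *Vdr* did, by 1.02 ± 0.14 (adjusted p = 3.71e-09), from 66.4 ± 1.91 to 32.6 ± 3.00 CPM. In TerminaTOR cells *Rxra* stood at 45.4 ± 3.49 CPM and in the matched controls at 46.0 ± 4.69 CPM, a log2 difference of -0.02 ± 0.14 (0.964). The gene called there was *Pdia3*, a protein disulfide isomerase, higher by 0.20 (0.0404) and lost in 5 of 6 such fits. *Cyp24a1*, the classic target of the receptor, had 24 reads in all 15 libraries and was not tested.

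Of 17 tested genes of mismatch repair and end resection, 2 rose and 4 fell with rapamycin over PDGF, with a list median of -0.30 against 0.02 over all genes. *Msh3*, which recognizes mismatches, fell by 1.85 ± 0.59 (edgeR adjusted p = 0.0109; 0.0779 without rapamycin replicate 2) and *Rpa3*, a subunit of the single-strand binding complex, by 1.25 (0.00194). In TerminaTOR cells edgeR called 0 of the 17, as did DESeq2 and limma-voom. At an unadjusted p under 0.05 by edgeR, 2 were higher and 1 lower. The share of all genes at that looser threshold is not given here, so nothing is read from these counts.

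Of 12 tested Fanconi genes, 2 rose and 3 fell with rapamycin over PDGF. *Fan1*, a nuclease, and *Wdr48*, a cofactor of the deubiquitinase of the pathway, rose by 0.96 and 0.92 (edgeR adjusted p = 0.00906 and 0.00456; *Fan1* 0.142 at most without PDGF replicate 3 or rapamycin replicate 1), and *Hes1*, best known as a target of Notch, fell by 1.66 (0.000270). In TerminaTOR cells *Fancf*, another core complex subunit, fell by 0.54 ± 0.14 (0.00983) and *Rfwd3*, a ubiquitin ligase, rose by 0.28 ± 0.08 (0.0223). The first call was lost without TerminaTOR replicate 1 or matched control replicate 3, the second in 4 of 6 fits. *Fanca* and *Fancd2* had 97 and 79 reads in all libraries and were not tested.

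Of 15 tested growth-associated genes and protein kinase C genes, 3 rose and 4 fell with rapamycin over PDGF and 1 rose and 3 fell in TerminaTOR cells. Under rapamycin, 7 fell with libraries scaled by their totals, and 2 without PDGF replicate 2 or rapamycin replicate 2. The transcription factor genes *Klf6* and *Klf7* fell in TerminaTOR cells by 0.54 ± 0.06 and 0.44 ± 0.07 (edgeR adjusted p = 1.21e-09 and 1.80e-06), and the kinase gene *Prkcd* rose by 1.12 ± 0.33 (0.0334), lost in 5 of 6 fits without 1 library. *Basp1*, a membrane protein related in function to the *Gap43* product, stood at 262 ± 9.64 CPM in TerminaTOR cells and 279 ± 6.30 CPM in the matched controls, a log2 difference of -0.09 ± 0.07 (0.563). Of 6 tested genes of NAD(P)HX repair and NAD synthesis, 2 fell with rapamycin over PDGF. In TerminaTOR cells edgeR, DESeq2 and limma-voom called 0. At an unadjusted p under 0.05, 1 was higher and 0 lower, from which nothing is read without the share of all genes at that threshold. *Naxe*, the epimerase that works with the *Naxd* product, fell by 0.59 ± 0.09 with rapamycin over PDGF (1.71e-07) and had a log2 difference of 0.04 ± 0.08 in TerminaTOR cells (0.884).

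The genes most like each member over the 15 libraries, by Pearson's r of log2 CPM, are a description, since all share the libraries and the group structure. *Mmp9*, a matrix metalloproteinase, was most like *Olr1* (r = 0.952), with means of 34.7 CPM under rapamycin and 6.14 to 9.45 CPM in the other groups, followed by *Ece1* (0.939) and *Sh3pxd2a* (0.931). *Vdr* was closest to *Rfwd3* (0.981), *Tpcn1* (0.961) and *Gli2* (0.958), and *Exo1* to *Hic1* (0.940) and *Pkdcc* (0.927). *Naxd* was closest to *Igf2r* (0.946), *Sorcs2* (0.937) and *Zzz3* (0.931). *Gap43* and *Fancc* had lower values: 0.795 for *Fmnl3*, 0.774 for *Sorcs2* and 0.771 for *Fgf10* with the first, and 0.831 for *Dvl2*, 0.816 for *Snx33* and 0.799 for *Epdr1* with the second. *Sorcs2*, a sorting receptor, thus appeared for both *Gap43* and *Naxd*, with a mean of 72.9 CPM in TerminaTOR cells and 134 to 183 CPM in the control groups. Among pairs of members, r ran from -0.801 between *Naxd* and *Vdr* to 0.873 between *Exo1* and *Vdr*. The members were chosen for shifts in the TerminaTOR libraries, which enter these values, so nothing is read from them.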

How the data were processed

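RNA was measured by poly(A)-selected RNA-seq in 15 libraries, from 1 µg of total RNA each, per the labels' protocols. The deposited files hold whole-number read counts per mouse transcript, not normalized. HISAT2 2.2.1, HTSeq 0.9.1, R 4.1.0 and the human build hg38 appear in the submitters' processing notes, with no role given, although the identifiers are those of mouse transcripts. The sources used here name no mouse build, annotation or strand setting. HTSeq's default leaves out reads shared by several features. If it was used with transcripts as features, a gene's count comes from bases that belong to 1 transcript alone.

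Of 142446 identifiers, 141536 matched the GENCODE M21 annotation (GRCm38) after removal of versions, and the 910 others, with 0.0309% of counts, were left out. Counts were summed to 55266 genes. Changes were tested with edgeR 4.0.16 in R 4.3.3 (quasi-likelihood F test, robust, TMM, filterByExpr, 1 fit over 5 groups with 10 residual degrees of freedom) over 10603 genes and, separately, 13116 transcripts, with Benjamini-Hochberg adjustment. A gene was called at an adjusted p under 0.05. SE was taken as the size of the log2 change over the root of F and may understate the error of genes with few reads. The procedure was tested on simulated data. Transcripts of a gene were compared with diffSpliceDGE, a test added after the transcript counts were seen.

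The 6 members, the 6 pathway lists, 5 marker lists and motifs were chosen with earlier results of these data known. Named genes were the members, up to 3 called genes per list and comparison with the largest change, defining partners, the 3 genes most like each member (mean log2 CPM of at least 1), and the nearest and called neighbours within 500 kb. Alternatives were other scalings, no filter, DESeq2 1.42.0, limma-voom (limma 3.58.1), a fit on the compared groups, a replicate block, leaving out each library, transcripts in place of genes, and other neighbour windows. Same-numbered libraries of different groups deviated together weakly at most (30 pairs, r from -0.0396 to 0.0760). The median r was 0.00795, against -0.00362 for libraries with different numbers. No same-numbered pair passed a limit of 0.1, so the main fit had no block. No 2 replicates were alike within sampling noise (mean chi-square per gene 2.56 to 8.12). Promoter windows are RefSeq's, and 4 of the 6 genes matched by symbol. Some genes that the rule names are not reported here.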

Additional observations from a re-analysis of the deposited data

How the results depend on the processing

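Scaling by library totals moved the split of all called genes from 2128 higher and 1794 lower to 1379 and 3111 with PDGF, and from 2948 and 2708 to 1918 and 4153 with rapamycin against no PDGF. The median of all genes moved by over 0.1 in every comparison but that of TerminaTOR, to between -0.36 and -0.10. It gave 2 members lower with PDGF in place of 1. It also turned 3 changes that passed no test: *Gap43* with rapamycin over PDGF (-0.00296), *Naxd* with rapamycin over no PDGF (-0.0471) and *Fancc* with PDGF (-0.17). With limma-voom *Gap43* turned to 0.0204 with PDGF and 0.0560 with rapamycin over no PDGF. In the TerminaTOR comparison, a fit on the compared groups called 395 genes higher (249 as reported), and no filter called 169 lower (273), 1 listed gene higher (3) and 0 neighbours lower (1). Windows of 200 and 1000 kb gave 1 and 4 neighbours higher (2), and 200 kb 0 lower. The cause of these shifts was not tested.

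Leaving out 1 library gave 0 to 1 members higher and 1 to 2 lower with PDGF. In the TerminaTOR comparison it gave 141 to 179 genes higher and 155 to 182 lower, 0 to 2 listed genes higher and 3 to 5 lower, and 0 to 0 neighbours lower. *Gap43* ranged from -0.59 to 0.54 with PDGF, from -0.34 to 0.44 with rapamycin over PDGF and from -0.62 to 0.64 against no PDGF. *Fancc* ranged from -0.00109 to 0.18 with PDGF and from -0.20 to 0.0154 with cycloheximide over PDGF. With the replicate block 275 genes were higher and 288 lower in the TerminaTOR comparison, 1 member was higher and 3 lower with rapamycin over PDGF, and no member's call changed. Depth limits *Olr1* outside rapamycin, *Exo1* with rapamycin, and *Gap43*, *Naxd* and *Fancc* throughout, where a library held 44 reads at most.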
